A study of Homo sapiens with 6 samples.

Results

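The hairpin shDDX18#3 was compared with a control hairpin against luciferase (shLuc) in human embryonic stem cells, between 4 of the 6 RNA-Seq libraries of the series. All 6 libraries entered the fit and its estimate of spread. DDX18 belongs to the DEAD-box family of RNA helicases, enzymes that use ATP to open RNA duplexes and to remodel RNA with its proteins. It sits in the nucleolus, where ribosomal RNA is made and ribosomal subunits are assembled, and its yeast counterpart is needed for ribosome assembly. Pluripotent stem cells divide fast and make many ribosomes, and their identity is held by transcription factors such as SOX2, NANOG and POU5F1 (OCT4). The series title places the work in the question of how DDX18 acts on the nucleolus, on chromatin and on pluripotency.

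Both lines, H9 and HES2, are established human embryonic stem cell lines, kept on irradiated mouse embryonic fibroblasts in serum-replacement medium with bFGF. All cells, controls included, were infected with a hairpin virus and harvested on day 4. Each line gave 1 library with shLuc, 1 with shDDX18#3 and 1 with a second DDX18 hairpin, shDDX18#1, so that every arm holds 2 libraries, paired by line. The labels name neither separate cultures nor a sort for infected cells, and no arm in which DDX18 was restored was analysed here. The p-values therefore measure the spread between these 6 samples alone.

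Levels are counts per 1000000 reads of the effective library size (CPM), as scaled by the authors. Fold changes are shDDX18#3 minus shLuc on the log2(CPM + 1) scale, which understates the change of low genes, and a gene was called at an adjusted p under 0.05 (limma with an intensity trend, cell line as a block, Benjamini-Hochberg over 17768 genes). The 4 libraries held between 3178058 and 4271741 reads, so that 3 reads, taken as the floor, were worth between 0.671 and 0.973 CPM. Floors and counting intervals cover counting error only. Because these are bulk samples, fewer cells of a type and less RNA per cell cannot be told apart.

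The targeted transcript was lowered in both lines and was not abolished. DDX18 (ENSG00000088205) stood at 153 CPM in H9 shLuc and 47.3 in H9 shDDX18#3, and at 161 and 60.4 in HES2. The shDDX18#3 libraries thus kept 31.0% of the control level in H9 and 37.6% in HES2, and lay well below both controls. The log2 fold change was -1.53 (SE 0.22, adjusted p = 0.0048). The call was lost without H9 shDDX18#3 (adjusted p = 0.108) and without HES2 shDDX18#3 (adjusted p = 0.179), in fits where the remaining shDDX18#3 library is assumed to vary like the other arms. DDX18 also missed the threshold without the intensity trend (adjusted p = 0.079) and without the cell line block (adjusted p = 0.0972), at the same fold change. Under shDDX18#1 the level was 19.2 CPM in H9 and 39.3 in HES2, lower than under shDDX18#3 in each line, although the direct difference of 0.93 did not pass (adjusted p = 0.145).

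Under shDDX18#3, 1236 genes rose and 655 fell, and rises were the larger changes. By at least 2-fold on the log2(CPM + 1) scale, 867 rose and 220 fell. Of all genes tested 10.6% were called, 6.96% as rises and 3.69% as falls, and each list below is to be read against these shares. The median over all genes was -0.01, and 4690 genes had an unadjusted p under 0.05. All 1891 called genes had the same direction in H9 and in HES2, which the call itself favours, since it was made on both lines. Across all 17768 genes the effects in the 2 lines correlated with r = 0.578, a correlation over genes, which are not independent replicates. The median rise was 1.21 in H9 and 1.38 in HES2, and the median fall -0.83 in both lines.

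**Figure D1:**
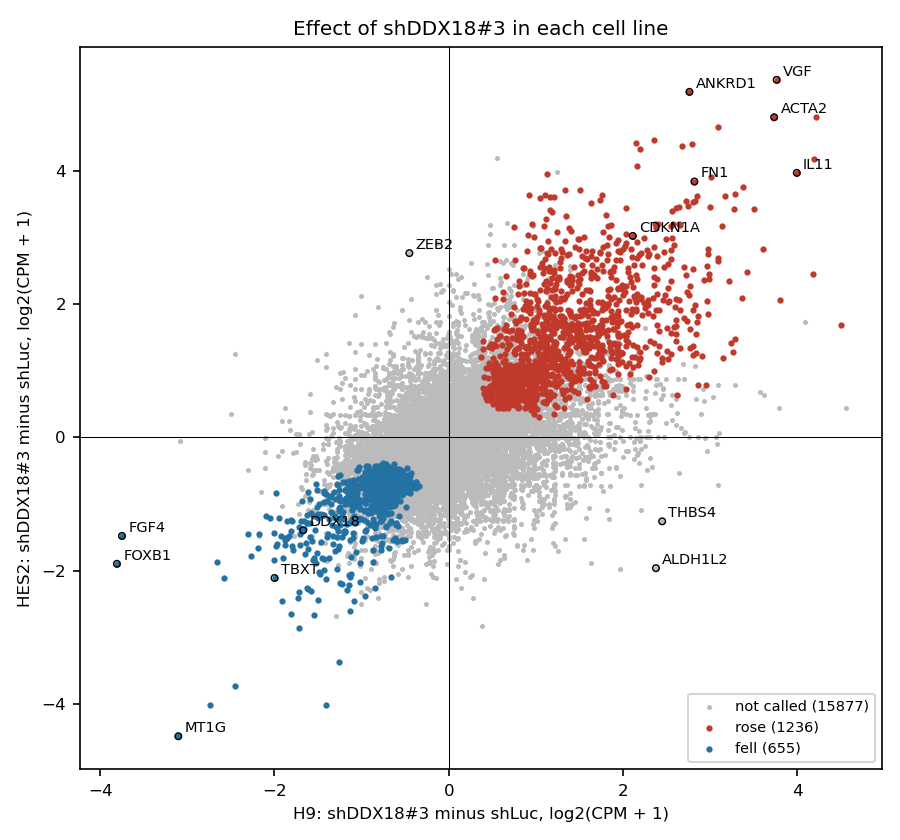
Each point is 1 of the genes tested, placed by its shDDX18#3 minus shLuc difference in H9 (x axis) and in HES2 (y axis), both on the log2(CPM + 1) scale. Red and blue points are the 1236 rises and 655 falls, which lie to the upper right and lower left of the origin, and ALDH1L2, THBS4 and ZEB2 are examples of uncalled genes with opposite signs in the lines.

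How many genes were called rests on having both shDDX18#3 libraries. In the fit without H9 shDDX18#3 there were 119 rises and 5 falls. In that without HES2 shDDX18#3 there were 23 rises and 0 falls by limma (2143 genes at an unadjusted p under 0.05). With edgeR on the recovered reads 1428 rose and 822 fell, and with DESeq2 871 rose and 320 fell. Without the intensity trend limma called 196 rises and 31 falls, and without the cell line block 16 and 2. The 123 called genes picked by the naming rule or added to it had the same direction in each fit with 1 shDDX18#3 library, while 40 passed without H9 shDDX18#3 and 17 without HES2 shDDX18#3. The kept direction is favoured by the call itself, which was made on these same libraries. The losses of calls bear on every list count given here.

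Among the 12 largest rises were secreted factors, contractile genes and matrix genes. VGF, a neuroendocrine secretory protein, went from 50.9 to 704 CPM in H9 and from 11 to 495 in HES2, the largest rise at 4.57 (SE 0.37, adjusted p = 0.000537). Both shDDX18#3 libraries lay far above both controls. IL11, a cytokine of the interleukin-6 family, rose from 2.21 to 50.2 CPM in H9 and from 2.46 to 53.5 in HES2. Its change of 3.99 (SE 0.22, adjusted p = 0.000223) was nearly equal in the lines and passed in all 18 alternatives tried, with adjusted p of at most 0.0455. ANKRD1, a stretch-responsive cardiac cofactor and YAP target, went from 17.4 to 124 CPM in H9 and from 6.48 to 273 in HES2, with a larger step in HES2 (5.19) than in H9 (2.76).

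Other rises among the 12 followed the same order of libraries within each line. NPPB, the natriuretic peptide B precursor, rose by 3.88, GREM1, a secreted BMP antagonist, by 3.61, TGFB2, a TGF-beta ligand, by 3.47, and MARCH4, a membrane ubiquitin ligase, by 4.19. The matrix genes COL3A1, a fibrillar collagen, and ITGA11, a collagen receptor subunit, rose by 3.53 and 3.47. ACTA2, smooth muscle actin, rose from 20.2 to 281 CPM in H9 and from 2.68 to 102 in HES2, a change of 4.27. ACTA2-AS1, its antisense partner, rose by 4.51, but the library kit does not mark strand, so the reads of the pair cannot be told apart.

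The 12 largest falls held 3 metallothioneins and several regulators of early development. FGF4, a growth factor of the early embryo, stood at 12.5 CPM in H9 shLuc and 1.79 in HES2 shLuc, with 0 reads in both shDDX18#3 libraries. Its level was at least 14.6-fold lower over both lines together, against a floor of 3 reads over the group. The controls held 45 reads in H9 and 8 in HES2, so that H9 carries most of this bound. The fitted change of FGF4 passed (adjusted p = 0.0271 by limma) but missed the threshold with a pseudocount of 4 (adjusted p = 0.0619). HES3, a repressor of the Notch-linked HES family, had 84 reads in the 2 controls and 2 under shDDX18#3, a 34.7-fold lower level with a counting interval from 9.31 to 291 (95%, counting error only). FOXB1, a forkhead factor of the neural plate, went from 35.7 to 1.62 CPM in H9 and from 12.1 to 2.51 in HES2, a change of -2.85 (SE 0.57, adjusted p = 0.0175). In each of these 3 genes the shDDX18#3 levels lay below both controls.

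Further falls were those of NRARP, a feedback inhibitor of Notch (-2.10), WDR76, an adaptor of a ubiquitin ligase (-2.26), and CNMD, which encodes chondromodulin (-2.29). The secreted phospholipase PLA2G3 fell by 2.35 on the log2 scale, ACTN3, a muscle actinin, by 2.32, and the long noncoding RNA LINC01896 by 2.23. ACTN3 was uneven between the lines, with -1.26 in H9 and -3.38 in HES2. Of these 24 largest changes, 14 passed without H9 shDDX18#3 and 8 without HES2 shDDX18#3.

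**Figure D2:**
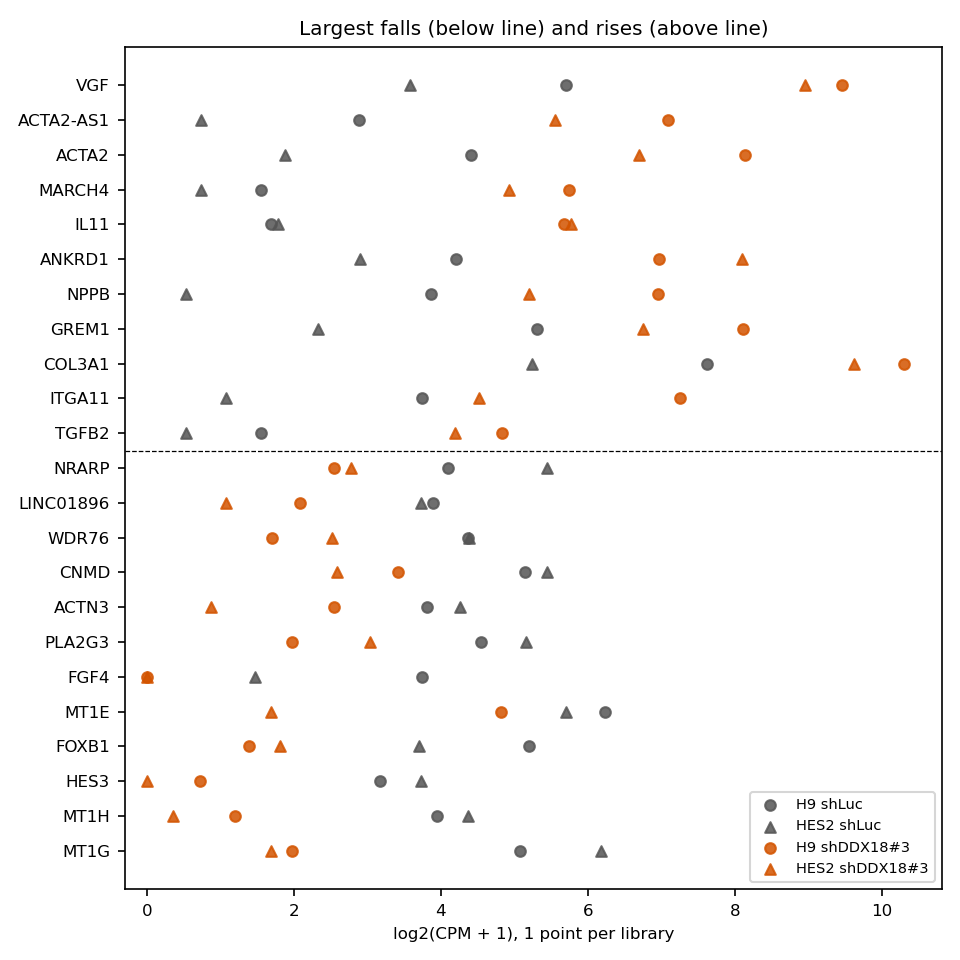
Levels of the reported genes among the 12 largest rises (above the dashed line) and of the 12 largest falls (below it) as log2(CPM + 1), with 1 point per library, grey for shLuc and orange for shDDX18#3, circles for H9 and triangles for HES2. For each gene the orange point of a line lies on the same side of its grey point in both lines, as the naming rule required. FGF4 has both orange points at 0.

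Genes of the pluripotent state fell. Of 31 core and primed pluripotency genes 19 fell and 0 rose, a share of 61.3% against 3.69% of all genes, with a median of -0.94. DNMT3B, a de novo DNA methyltransferase abundant in these cells, went from 1527 to 466 CPM in H9 and from 1348 to 439 in HES2, a change of -1.66 (SE 0.13, adjusted p = 0.000537). SOX2, which with POU5F1 occupies the enhancers of pluripotency genes, fell from 422 to 178 CPM and from 377 to 151, a change of -1.28 (SE 0.13, adjusted p = 0.00122). Neither gene's shDDX18#3 libraries overlapped with the controls. The telomere protein gene TERF1 (-1.69), the chromatin regulator PRDM14 (-1.72) and NANOG (-0.89) fell as well.

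The loss of pluripotency transcripts was partial and did not take in every member. NANOG kept 46.7 of 90.8 CPM in H9 and 52.6 of 95 in HES2. LIN28A, an RNA-binding protein that blocks let-7 maturation, stood at 1214 and 773 CPM in H9 and at 1161 and 1016 in HES2, and its difference of -0.42 did not pass (adjusted p = 0.186). POU5F1 was listed at 1.66 and 3.58 CPM in the controls, far too low for an embryonic stem cell line. POU5F1 has near-identical copies elsewhere in the genome, between which reads can be split, and whether this lowered its listed level was not tested. No change of POU5F1 is therefore read from these values. Of 6 naive pluripotency genes with enough reads, KLF5 (1.37) and TBX3 (1.70) rose.

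Nodal signalling keeps primed cells pluripotent at low dose and drives them to endoderm at high dose. Of 13 genes of the pathway 4 fell and 1 rose, shares of 30.8% falls and 7.69% rises. Over all genes the shares were 3.69% falls and 6.96% rises, so the share of rises is near that of all genes. NODAL, the ligand, fell from 135 to 82.7 CPM in H9 and from 112 to 50.1 in HES2, a change of -0.92 (adjusted p = 0.0166). FOXH1, the nuclear partner of SMAD2 and SMAD3, fell by 1.46 on the log2 scale and the receptor ACVR2B by 0.76, whereas SMAD3 rose by 1.08. The feedback antagonists LEFTY1 and LEFTY2, targets of the pathway, were at -1.98 (adjusted p = 0.0553) and -1.25 (adjusted p = 0.235) and were not called.

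Markers of differentiated lineages rose in part. Endoderm genes rose in 8 of 18 cases and fell in 0, with a median of 1.34. HNF4A, a transcription factor of liver and visceral endoderm, went from 4.98 to 34 CPM in H9 and from 1.79 to 24.2 in HES2, a change of 2.86 (SE 0.27, adjusted p = 0.000851). CXCR4, a chemokine receptor of definitive endoderm, rose by 2.04, and the apolipoprotein genes APOA2 and APOA1 by 2.63 and 2.18. For HNF4A and CXCR4 both shDDX18#3 libraries exceeded both controls.

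In the trophoblast and amnion list 6 of 14 genes rose and 0 fell (median 1.43), with medians of 1.10 in H9 and 2.38 in HES2. GATA3, a transcription factor of trophectoderm, went from 3.05 to 12.6 CPM in H9 and from 5.59 to 81 in HES2, a change of 2.70 (SE 0.39, adjusted p = 0.00458). EPAS1, a hypoxia-inducible factor, was at 1.05 in H9 and 3.59 in HES2, and MSX2, a homeobox gene, at 1.14 and 2.95. Both were called over the 2 lines, as was IGFBP3, which also stands among the YAP and TEAD targets below.

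Among 26 mesoderm genes there were 5 rises and 1 fall, with a median of 0.69. The fall was that of TBXT (brachyury), the marker of the primitive streak, from 18.6 to 3.89 CPM in H9 and from 38.2 to 8.08 in HES2, a change of -2.06 (SE 0.26, adjusted p = 0.00291). Those that rose include SNAI2 (2.45) and TWIST1 (2.01), repressors of epithelial genes, and MYL7, an atrial myosin light chain (2.56). Of 13 neural ectoderm genes 3 rose, among them CDH2 (1.45) and OTX2 (1.00), and 2 fell, HES3 and FOXB1. For the HOX genes, position regulators of the trunk, 0 of 18 were called by limma although their median was 1.17. Their levels were low, and 10 of 19 with a deposited signal had 0 reads in HES2 shLuc. HOXB3, the member with the smallest p, stood at 0.67 in H9 and 3.22 in HES2 (adjusted p = 0.0567). It had 6 reads in H9 shLuc and 10 in H9 shDDX18#3, and 4 and 60 in HES2.

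Mesenchymal genes and collagens held the largest shares of calls among the lists described. Of 21 genes of the mesenchymal transition 19 rose and 0 fell, with a median of 2.10, and of 19 collagens 15 rose and 0 fell, with a median of 1.88. FN1, fibronectin, went from 2424 to 17115 CPM in H9 and from 1026 to 14763 in HES2, a change of 3.33 (SE 0.27, adjusted p = 0.000537). COL1A1, the main collagen of connective tissue, rose from 687 to 6175 CPM in H9 and from 59.5 to 749 in HES2, a change of 3.40. The HES2 shDDX18#3 level of COL1A1 was just above that of H9 shLuc, so the arms are set apart mainly within each line. Further rises included COL4A1 (2.22), a collagen of basement membranes, COL5A1 (2.78), COL12A1 (3.13) and the integrin subunit ITGAV (2.46). COL12A1 in HES2 shDDX18#3, at 55.1 CPM, lay below its H9 shLuc level of 91.1, so its arms overlap across the lines.

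In the list of fibroblast and feeder markers, which overlaps with these lists, 13 of 21 genes rose and 0 fell. Their summed share of reads went from 0.385% to 1.64% in H9 and from 0.139% to 0.584% in HES2. LUM, a matrix proteoglycan of fibroblasts, rose from 10.8 to 35.7 CPM in H9 and from 4.69 to 64.3 in HES2, whereas DCN, FAP and MGP, which also mark fibroblasts, had 0 reads in both HES2 shLuc and HES2 shDDX18#3. POSTN, a further fibroblast marker, stood at 1.56 and 0.835 CPM in these HES2 libraries. In H9, DCN went from 5.54 to 14.3 CPM and POSTN from 31.8 to 158. Of the 21 markers, 10 also stand in the mesenchymal, collagen, SRF or YAP and TEAD lists, and all 10 rose, while 3 of the other 11 rose. The summed share of those 11 went from 0.0652% to 0.133% in H9 and from 0.0616% to 0.0892% in HES2. The part that fibroblasts or feeder cells have in these results was not tested.

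Contractile genes, targets of YAP and TEAD, and genes of the TGF-beta pathway rose alongside. Of 23 genes of serum response factor (SRF) and smooth muscle 10 rose and 0 fell, with a median of 0.62. TAGLN, an actin-binding protein of smooth muscle, rose from 480.4 to 1606 CPM in H9 and from 248 to 617 in HES2, a change of 1.53 (SE 0.15, adjusted p = 0.00108). The myosin light chain MYL9 rose by 1.48, tropomyosin TPM1 by 1.41, and ACTN1, a non-muscle actinin, by 0.90. MYL9 in HES2 shDDX18#3, at 278 CPM, lay below its H9 shLuc level of 293.

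YAP and TEAD targets, which respond to stretch and to cell spreading, rose in 20 of 29 cases and fell in 0, with a median of 0.95. CCN2, a secreted matricellular protein and a standard readout of YAP, went from 111 to 480.1 CPM in H9 and from 85.8 to 329 in HES2, a change of 2.01 (SE 0.13, adjusted p = 0.000286). CCN1, its relative, rose by 1.46 and the membrane repair protein MYOF by 2.31. IGFBP3, a binding protein of insulin-like growth factors, rose from 34.3 to 341 CPM in H9 and from 5.14 to 65.4 in HES2, a change of 3.35. Of 20 genes of the TGF-beta pathway 12 rose and 0 fell (median 1.14), among them the ligand TGFB2, the target IL11, and BHLHE40, a transcription factor (2.51). TGFB2 also stands among the YAP and TEAD targets, and IGFBP3 also stands in the trophoblast and amnion list, so these lists are not separate evidence.

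Promoter sequence of 3 of these risen genes is shown because their lists share known binding motifs. The sequences are RefSeq windows on GRCh38.p14, and the 250 bases before an annotated start are printed 5′ to 3′ on the gene's strand, with motif matches on either strand in capitals. For ACTN1 the capitals mark a CArG box, the SRF motif, at chr14:68977567-68977816 on the minus strand, which is 1 of several annotated starts. The motif reads as a match on both strands there. For CCN2, at chr6:131951373-131951622 on the minus strand, and TGFB2, at chr1:218345086-218345335 on the plus strand, the capitals mark CATTCC, the core TEAD motif, or its reverse complement.

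ACTN1: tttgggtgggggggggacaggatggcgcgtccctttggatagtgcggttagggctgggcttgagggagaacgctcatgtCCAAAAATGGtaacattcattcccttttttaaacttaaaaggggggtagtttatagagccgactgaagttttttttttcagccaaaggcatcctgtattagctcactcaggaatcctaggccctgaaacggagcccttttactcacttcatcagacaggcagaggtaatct
CCN2: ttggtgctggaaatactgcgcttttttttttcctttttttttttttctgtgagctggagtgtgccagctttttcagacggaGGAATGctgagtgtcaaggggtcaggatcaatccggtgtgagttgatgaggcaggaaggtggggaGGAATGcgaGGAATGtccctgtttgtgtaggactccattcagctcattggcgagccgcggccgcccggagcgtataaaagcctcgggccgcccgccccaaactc
TGFB2: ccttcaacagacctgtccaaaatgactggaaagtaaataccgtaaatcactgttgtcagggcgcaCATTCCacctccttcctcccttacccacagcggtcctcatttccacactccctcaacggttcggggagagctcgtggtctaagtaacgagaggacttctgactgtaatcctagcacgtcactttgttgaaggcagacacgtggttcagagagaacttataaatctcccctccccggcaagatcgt

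CCN2 held 3 matches, with a pair of them close together, and TGFB2 held 1. Over windows of 300 bases, from 250 before to 50 after a start, a CArG box was found in 1.29% of all 35116 windows and in 8 of the 37 windows of the SRF list, which cover 18 of its 23 tested genes. CATTCC was found in 14% of all windows and in 11 of the 26 windows of the YAP and TEAD list, which cover 22 of its 29 genes. By gene, 8 of 18 in the SRF list and 11 of 22 in the YAP and TEAD list held the motif, and of the called genes 2 of 7 and 7 of 14. These matches describe letters and are no measure of binding.

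Among the lists of ribosome production, called genes were mostly falls, and in each of these lists most genes were not called. DDX18 itself is 1 of 16 nucleolar DEAD-box and related helicases, of which 3 fell and 0 rose. DDX21, a helicase that couples RNA polymerase I to rRNA processing, went from 505 to 366 CPM in H9 and from 488 to 316 in HES2, a change of -0.54 (SE 0.13, adjusted p = 0.034), and DHX33 fell by 0.76 on the log2 scale. Both shDDX18#3 levels of DDX21 lay below both controls. Of 18 genes of the RNA polymerase I machinery 2 fell and 0 rose, the activator UBTF (-0.76) and the core subunit POLR1B (-0.67).

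Nucleolar scaffold proteins and the proteins that carry modification guides fell in 7 of 16 cases and rose in 0, with a median of -0.56. FBL, fibrillarin, the methyltransferase of box C/D particles, went from 252 to 159.8 CPM in H9 and from 292 to 172 in HES2, a change of -0.71 (SE 0.13, adjusted p = 0.0132). NOP58 (-0.67) and NOP56 (-0.65), its partners in the same particle, and the histone chaperone NPM3 (-1.10) fell with it. All 7 changes were close to or under 2-fold.

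Most assembly factors were not called. Of 47 small subunit factors 3 fell and 0 rose, and of 50 large subunit factors 7 fell and 1 rose, shares of 6.38% and 14% falls against 3.69% over all genes. NAT10, the RNA acetyltransferase of 18S rRNA, went from 152 to 49.6 CPM in H9 and from 182 to 95.2 in HES2, a change of -1.26 (SE 0.18, adjusted p = 0.00475), with a larger step in H9. The large subunit factors RRP1B (-0.74), NOP53 (-0.64) and RSL24D1 (-0.66) fell. SBDS, which releases the anti-association factor from late large subunits, was the one that rose, from 41.3 to 68.1 CPM in H9 and from 40.5 to 69.9 in HES2 (0.74, adjusted p = 0.0218).

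Host genes of small nucleolar RNAs fell in 5 of 21 cases and rose in 0, with SNHG1 at -0.85 and SNHG4 at -1.38. Among 80 transcripts that encode ribosomal proteins of the cytosol, 26 fell and 0 rose, with a median of -0.46. By line the list median was -0.38 in H9 and -0.56 in HES2, against 0.003 and -0.02 over all genes tested. RPL3, a core large subunit protein, went from 2014 to 1181 CPM in H9 and from 2166 to 1145 in HES2, a change of -0.84 (SE 0.14, adjusted p = 0.00876). The summed share of ribosomal protein reads went from 5.50% to 4.10% in H9 and from 5.62% to 3.79% in HES2. RPL22L1, the paralog of RPL22, had the lowest value of the list at -1.53. Ribosomal protein genes have many processed copies, and how the counting treated reads shared with them is not given in the sources used here.

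Genes of DNA replication fell more than those of mitosis. Of 41 S phase genes 18 fell and 0 rose, with a median of -0.77, while the 38 G2 and M phase genes had 10 falls and 0 rises and a median of -0.47, a difference between lists that was not tested. E2F1, a transcription factor of the G1 to S transition, went from 49.8 to 14.6 CPM in H9 and from 65.5 to 23.4 in HES2, a change of -1.58 (SE 0.20, adjusted p = 0.00314). The helicase subunits MCM6 (-1.20), MCM2 (-0.99) and MCM7 (-0.97) fell with it. In mitosis the checkpoint kinase BUB1 (-0.97), the cyclin CCNA2 (-0.95) and the kinesin KIF20A (-0.92) fell.

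Targets of p53 rose in 28 of 42 cases and fell in 0, with a median of 1.04. CDKN1A, the p21 inhibitor of cyclin-dependent kinases, went from 102 to 445 CPM in H9 and from 32.9 to 275 in HES2, a change of 2.57 (SE 0.22, adjusted p = 0.000716). MDM2, the ubiquitin ligase that degrades p53, rose from 117 to 388 CPM and from 68.9 to 285, a change of 1.87. Both genes had higher levels in both shDDX18#3 libraries than in either control. The antiproliferative gene BTG2 (2.51), the oxidoreductase TP53I3 (2.29), the RNA-binding protein ZMAT3 (2.17) and the death receptor FAS (2.89) also rose.

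AP-1 and immediate early genes rose in 9 of 19 cases and fell in 0, with a median of 0.90. JUN, a subunit of AP-1, went from 40.1 to 149 CPM in H9 and from 35.5 to 88 in HES2, a change of 1.58 (SE 0.20, adjusted p = 0.003). Its partners FOSL2 and FOSL1 rose by 1.897 and 1.81, and the zinc finger gene KLF6 by 1.63.

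Cholesterol synthesis genes fell in 14 of 26 cases and rose in 0, with a median of -0.57. HMGCS1, an early enzyme of the pathway, went from 449 to 148 CPM in H9 and from 456 to 186 in HES2, a change of -1.44 (SE 0.16, adjusted p = 0.00188). The 2 controls of HMGCS1 were nearly equal, and both shDDX18#3 libraries held less than 1 in 2 of their level. FDFT1 and SQLE, which make and oxidise squalene, each fell by 0.88 on the log2 scale. Of 21 glycolysis genes 6 fell, among them ALDOC (-1.95), GPI (-0.72) and LDHB (-0.75), and 1 rose, the glucose transporter SLC2A3 (0.79). SLC2A3 in H9 shDDX18#3, at 1968 CPM, lay below its HES2 shLuc level of 2001.

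Metallothioneins, small proteins that bind zinc and copper, had the lowest median of the lists described, -1.95 over 7 genes, of which 5 fell. MT1G went from 32.7 to 2.92 CPM in H9 and from 71.5 to 2.23 in HES2, a change of -3.80 (SE 0.50, adjusted p = 0.00338). MT1H fell by 3.38 on the log2 scale, MT1F by 1.95 and MT1X by 1.77, each with both shDDX18#3 libraries below both controls. MT1E, which fell by 2.71, stood at -1.41 in H9 and -4.02 in HES2. MT2A, at -0.80 in H9 and -2.13 in HES2, did not pass (adjusted p = 0.069). The genes of this cluster are near-identical in sequence, so the division of reads among them is uncertain.

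The promoters of MT1H, at chr16:56669564-56669813, and MT1X, at chr16:56682220-56682469, both on the plus strand of GRCh38.p14, are shown as those of cluster members that fell together. Capitals mark the metal response element core, TGCACNC or TGCGCNC, on either strand, in the 250 bases before the RefSeq start.

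MT1H: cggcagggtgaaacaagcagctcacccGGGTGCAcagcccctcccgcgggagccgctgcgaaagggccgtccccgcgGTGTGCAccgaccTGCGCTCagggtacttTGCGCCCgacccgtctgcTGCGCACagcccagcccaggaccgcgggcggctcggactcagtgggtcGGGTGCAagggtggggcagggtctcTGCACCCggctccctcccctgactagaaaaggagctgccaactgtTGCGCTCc
MT1X: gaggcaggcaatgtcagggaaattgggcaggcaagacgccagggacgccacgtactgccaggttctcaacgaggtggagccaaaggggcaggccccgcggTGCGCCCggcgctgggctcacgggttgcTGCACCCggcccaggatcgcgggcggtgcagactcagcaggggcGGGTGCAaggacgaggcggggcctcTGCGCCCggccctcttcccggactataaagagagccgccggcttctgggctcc

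There were 8 matches in the MT1H window and 4 in that of MT1X. This short motif was found in 29.6% of all windows of 300 bases, and in the 3 metallothionein windows that RefSeq gave for the 7 tested genes.

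Interferon-stimulated genes had 4 of 28 falling and 0 rising, with a median of -0.12. The 4 were IFITM1 (-1.13), IFITM2 (-0.61) and IFITM3 (-0.80), membrane proteins that block viral entry and that stem cells express without interferon, and BST2, tetherin (-1.72). IFITM2 in H9 shDDX18#3, at 95.0 CPM, lay above its HES2 shLuc level of 83.6. IFITM1 went from 263 to 98.9 CPM in H9 and from 244 to 135 in HES2 (adjusted p = 0.00528). Lists with few calls included proteasome subunits, with 0 of 40 called by limma, the 13 mitochondrially encoded proteins, with 0, nuclear oxidative phosphorylation genes, with 3 of 82 falling, and targets of ATF4, with 1 of 24 rising. Of 15 blood and immune markers 0 were in the deposited table.

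**Figure D3:**
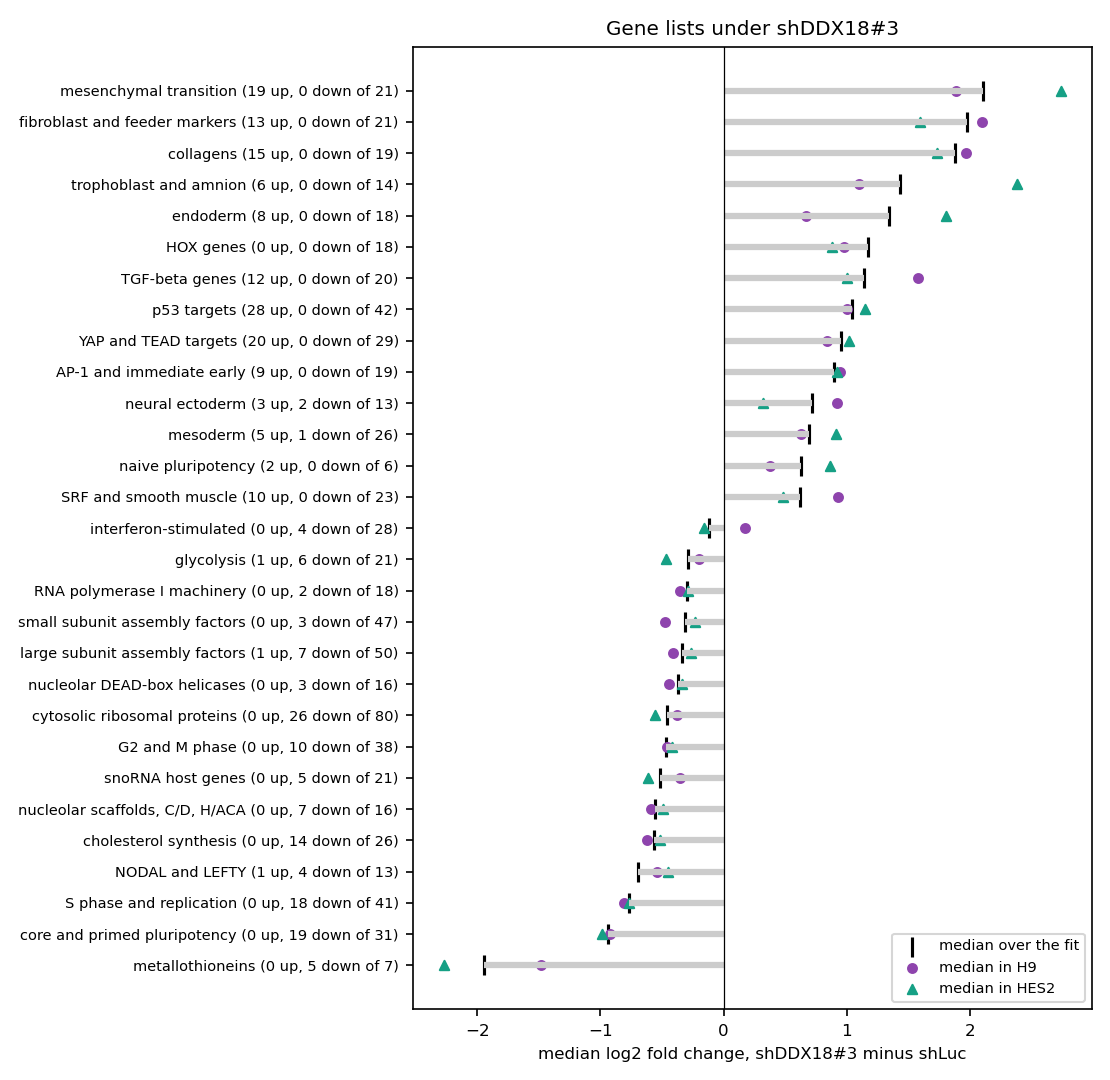
Median log2 fold change of each list, shDDX18#3 minus shLuc, on the log2(CPM + 1) scale, with the black tick and grey bar for the fit over both lines, circles for H9 and triangles for HES2, and the number of genes that rose and fell in brackets. Mesenchymal, fibroblast and collagen lists lie highest, from 1.88 to 2.10, metallothioneins lowest at -1.95, and among the lists drawn the interferon list has opposite signs in the lines.

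The hairpins were then compared directly, shDDX18#3 against shDDX18#1 in the same fit, because comparisons of each with shLuc share the control libraries. By limma 0 of 17768 genes passed, with a smallest adjusted p of 0.0541, while 2536 genes (14.3%) had an unadjusted p under 0.05. By edgeR 10 genes were higher and 21 lower under shDDX18#3, and by DESeq2 37 and 78. In a fit with the 4 hairpin libraries alone, tried after the data were seen, 274 were higher and 382 lower. Whether single genes differ between the hairpins therefore depends on the tool and on which libraries set the spread.

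The 6 genes with the smallest p are described with that limit. All 6 had an adjusted p of 0.0541 by limma and passed by edgeR, DESeq2 and in the hairpin libraries alone. SOX2 stood at 82.1 CPM in H9 and 72.7 in HES2 under shDDX18#1, below its shDDX18#3 levels of 178 and 151, a difference of 1.08 (SE 0.13). STMN3, a microtubule-destabilising protein of neurons, was higher than in shLuc under shDDX18#3, at 111 against 49.8 CPM in H9 and 72.7 against 40.5 in HES2, and lower under shDDX18#1, at 31 and 26.4. HMOX1, the haem oxygenase of oxidative stress, was at 191 CPM in H9 and 124 in HES2 under shDDX18#1 against 55.8 and 51.5 under shDDX18#3, a difference of -1.50 (SE 0.18). These 3 genes did not overlap between the hairpins, which their pick by smallest p in these same libraries favours.

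CTSV, a lysosomal protease (-1.12), IGFBP3 (-1.43) and IGFBP5 (-1.90), binding proteins of insulin-like growth factors, were lower under shDDX18#3 than under shDDX18#1. VGF, the largest rise under shDDX18#3, stood at 180.1 and 144 CPM under shDDX18#1, a difference of 1.87 that did not pass (adjusted p = 0.127 by limma).

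**Figure D4:**
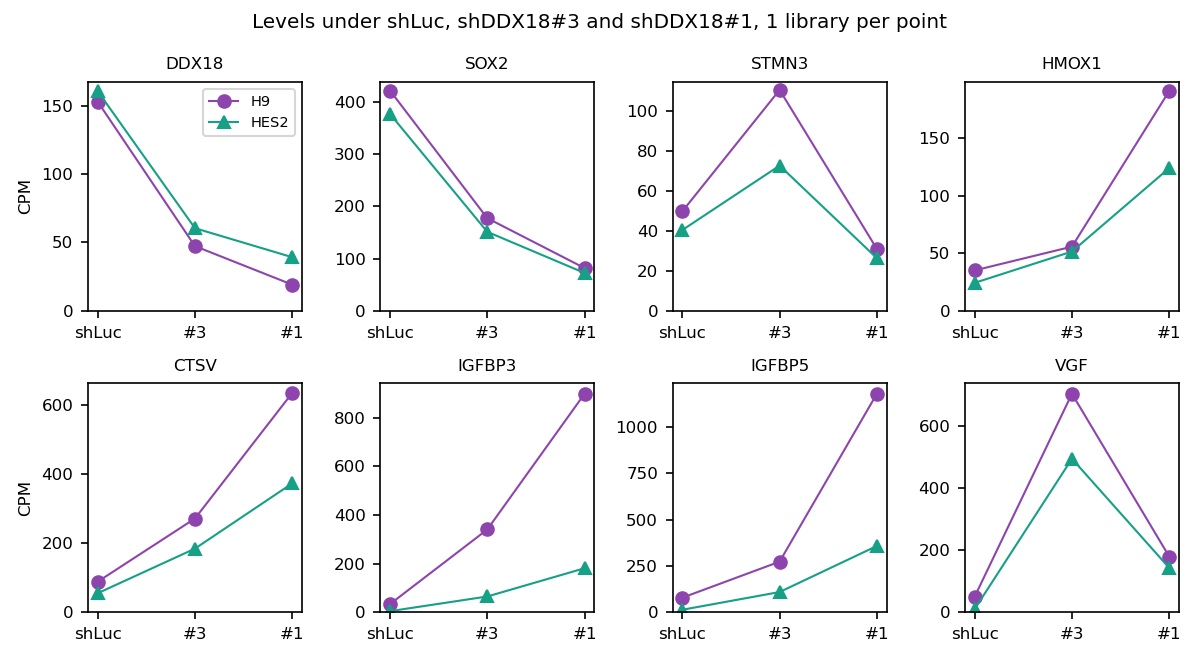
CPM of DDX18, of the 6 genes with the smallest p between the hairpins and of VGF, under shLuc, shDDX18#3 (#3) and shDDX18#1 (#1), with 1 point per library, circles for H9 and triangles for HES2, and the y axis starting at 0. DDX18 and SOX2 step down from left to right, HMOX1, CTSV, IGFBP3 and IGFBP5 step up, and STMN3 and VGF peak under shDDX18#3 in both lines.

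Lists differed between the hairpins in how far they stood from the control. Against a median difference of 0.02 over all genes, the list medians of shDDX18#3 minus shDDX18#1 were 0.69 for G2 and M phase, 0.65 for S phase and 0.57 for pluripotency genes, and -1.003 for endoderm and -0.70 for collagens. Of the 38 genes of G2 and M phase, 32 were higher under shDDX18#3 at an unadjusted p under 0.05, against 7.82% of all genes, and of the 18 endoderm genes 14 were lower, against 6.46%. None of these genes passed after adjustment by limma. Against shLuc, with the same 2 controls in both, the median of G2 and M phase was -0.47 under shDDX18#3 and -1.17 under shDDX18#1, and that of endoderm 1.34 and 2.10.

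Other lists had medians that lay closer together when each hairpin was set against the control. The medians under shDDX18#3 and shDDX18#1 were -0.57 and -0.50 for cholesterol synthesis, -1.95 and -2.10 for metallothioneins, and 1.04 and 1.29 for p53 targets. The SRF and smooth muscle list was at 0.62 and 0.40. Directly, shDDX18#3 minus shDDX18#1, the medians were -0.13 for cholesterol synthesis, -0.37 for metallothioneins, -0.11 for p53 targets and 0.20 for the SRF list. At an unadjusted p under 0.05 by limma, 5 of 23 SRF genes were higher and 0 lower. Of 42 p53 targets 0 were higher and 6 lower, of 26 cholesterol genes 1 and 5, and of 7 metallothioneins 0 and 0. Over all genes 7.82% were higher and 6.46% lower. No interval was computed for a difference of list medians, so equal action of the hairpins on these lists is not shown.

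A few genes with a mean of at least 10 CPM went opposite ways in the lines. ALDH1L2, a mitochondrial folate enzyme, went from 4.43 to 27.2 CPM in H9 and from 10.5 to 1.95 in HES2. THBS4, a matrix thrombospondin, went from 29.6 to 166 CPM in H9 and from 11.4 to 4.18 in HES2. ZEB2, a repressor of epithelial genes, went the other way, from 18.6 to 13.3 CPM in H9 and from 4.25 to 34.8 in HES2. Under shDDX18#1, against the same controls, ALDH1L2 was at 3.46 in H9 and -1.56 in HES2, and THBS4 at 4.915 and -1.67. ZEB2 was higher in both lines there, at 0.58 in H9 and 2.94 in HES2. With 1 library per arm and line, a difference between lines under 1 hairpin has no replicate, and it was not tested.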

How the data were processed

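RNA was measured in 6 libraries, 1 for each of 3 hairpin arms in H9 and in HES2. The table deposited by the authors gives 1 scaled signal for each of 17929 genes in every library. The submitters' processing notes list hg19, edgeR 3.26.8, HTSeq 0.11.2, Bowtie2 2.3.4.3 and SAMtools 1.9, without the role of each. Per the labels' protocols libraries came from a TruSeq RNA kit. Tested on the table, 100% of the deposited signal values were whole reads, within 0.001, after division by the value of 1 read, so they are CPM of an effective library size. Totals were 3647530 (H9 shLuc), 3178058 (H9 shDDX18#3), 4271741 (HES2 shLuc) and 3391529 (HES2 shDDX18#3) reads, and 2668179 and 2966308 for shDDX18#1. The deposited log2, score and p-value columns of the authors' own test were not used here.

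A gene entered the test when 2 or more of the 6 libraries held 1 CPM or more (17768 genes did, 161 did not). Values as log2(CPM + 1) were fitted in R 4.3.3 by limma-trend (limma 3.58.1) over all 6 libraries with cell line as a block, so that the arms share 1 estimate of spread (2 residual and 6.41 prior degrees of freedom). The pairing comes from the cell line: deviations of same-line libraries from their arm means correlated across genes at 0.363 to 0.654. Scripts were tested on simulated data. Alternatives were other pseudocounts (0.25 and 4), filters (none and 5 CPM), scalings, limma priors, a fit that drops the block, DESeq2 1.42.0 and edgeR 4.0.16 on recovered reads, the 4 compared libraries alone, and leaving out each library.

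The deposited table names 15532 genes, a gene name list gave 600 more symbols, and 1797 genes had none. Named genes were DDX18, the 12 largest rises and 12 largest falls that have a symbol, average 3 CPM or more over the 4 libraries and share 1 direction in both lines, and up to 4 called members of each described list with the smallest p (2 where none was called). The rule adds the 6 genes with the smallest p between the hairpins and 4 genes of at least 10 CPM with the largest opposite effects in the lines, and promoters of up to 2 called members of the SRF, YAP and TEAD, and metallothionein lists that hold a motif, which adds ACTN1 and FLNA, of which ACTN1 is shown. NANOG, MDM2, POU5F1, LEFTY1, LEFTY2, DCN, FAP, MGP, POSTN, LUM, CDKN1A, LIN28A and MT2A were added after their values were seen. For 2 genes picked by this rule no values are reported here. The comparison, its gene lists and the rule were chosen with earlier results of these data known. Of 56 lists tabulated, 29 are described with named genes.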

Additional observations from a re-analysis of the deposited data

Results flagged for a closer look

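These results moved one way in H9 and the opposite way in HES2 under shDDX18#3. Each line has 1 library per arm, and the difference between lines was not tested. All values are shDDX18#3 minus shLuc on the log2(CPM + 1) scale. ALDH1L2 was at 2.38 in H9 and -1.96 in HES2, and THBS4 at 2.45 and -1.26. ANPEP, a membrane aminopeptidase, was at 2.20 in H9 and -1.09 in HES2. ZEB2 was at -0.45 in H9 and 2.77 in HES2. The fibroblast marker POSTN was at 2.27 in H9 and -0.48 in HES2, where both levels were under 2 CPM. The median of the interferon-stimulated list was 0.17 in H9 and -0.16 in HES2.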

How the results depend on the processing

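No call reversed among the genes tested under the other pseudocounts, filters, scalings and tools and in the fits without 1 library, although of the 1891 called genes 8 were not tested without H9 shLuc, 8 without HES2 shLuc and 32 under the filter of 5 CPM. The calls were made on these same libraries, which favours a kept direction, and other priors leave the fold change as it is. The numbers called depended more on the choices. Without the trend 196 genes rose and 31 fell, with DESeq2 320 fell, and leaving out single libraries gave between 23 and 1458 rises and between 0 and 843 falls. Without the replicate block, which ignores the pairing by cell line, 16 genes rose and 2 fell, and 4 of the 123 called genes of the naming rule and its additions passed. Between the hairpins, where limma called 0, quantile normalization called 18 genes, a robust prior 43, edgeR 31, DESeq2 115 and the 4 hairpin libraries alone 656, and leaving out single libraries gave between 0 and 817. The largest counts on leaving out 1 library arose without H9 shLuc and without HES2 shLuc. There the remaining shLuc library is fitted exactly, so the 4 hairpin libraries alone set the spread. These fits are thus not separate from that with the 4 hairpin libraries alone. What the control libraries add to the spread was not tested.

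Reversed signs were seen in uncalled genes. ALDH1L2, THBS4, ANPEP and ZEB2 were picked for opposite signs in the lines, which itself favours such swings when 1 library is left out. With DESeq2 ALDH1L2 stood at -0.80 and THBS4 at -0.42. Leaving out single libraries gave between -2.13 and 2.55 for ALDH1L2, between -1.98 and 3.17 for THBS4, between -0.995 and 2.11 for ANPEP, between -0.24 and 2.56 for ZEB2, between -1.20 and 3.00 for POSTN, between -1.02 and 0.0598 for POU5F1, between -0.15 and 1.38 for DCN, between -0.21 and 3.07 for FAP and between -0.21 and 1.29 for MGP. The cause was not tested. Depth limits low genes: a level under the floor rests on fewer than 3 reads, and 3.96% of the rises had a mean under 3 CPM.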
